A study of Mus musculus with 6 samples.

Results

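Scavenger receptors are surface and secreted proteins that bind modified lipoproteins, microbes, dying cells and other debris. The family is defined by this shared ligand range and not by descent, so its members differ in structure. Macrophages that line the sinuses of lymph nodes are known for high levels of several of them, which they use to clear lymph. The genes described here were the 8 members Marco, Msr1, Cd36, Cd163, Scarb1, Scarb2, Cd5l and Lrp1, chosen by name as scavenger receptors or their soluble relative from the 32287 features of a single-cell count matrix. Each was followed across marker-gated cell types and between unimmunized and immunized mice.

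The cells came from inguinal nodes of the CD169-Tom line, whose mice carry a Cre recombinase in the Cd169 (Siglec1) gene and a floxed tdTomato reporter, so that cells which have expressed CD169, and their descendants, stay red. Both groups carried these alleles, and according to the methods the mice were older than 6 weeks, of either sex and on a C57BL/6J background. U1 and U2 were unimmunized, and I1 and I2 were taken 9 days after immunization with hen egg lysozyme (HEL). Live TOM+ cells with high CD11b were sorted, each mouse was marked with its own hashtag antibody, and the pool was split over 2 captures, so n was 2 mice per condition throughout. The reporter marks a history of Cd169 and not a cell type, and the sort held lymphocytes as well as myeloid cells.

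After removal of 1242 barcodes whose sequence occurred in both captures, 12139 cells were assigned to 1 mouse each, 2828 in U1, 537 in U2, 4052 in I1 and 4722 in I2. Median depth was 5877, 6280, 9674 and 12727.5 unique molecular identifiers (UMIs) per cell in that order. Every mouse had UMIs of Itgam (67.7 to 135 CPM, the count of a gene per 1000000 UMIs of a library), Siglec1 (11.3 to 27.2 CPM) and Tomato (2.36 to 6.11 CPM). Cells were gated into 16 types by marker genes that include no member, and 3976 cells (32.8%) met no gate. A list of 5 lymphatic endothelial and stromal genes summed to 25.1, 19.9, 11.3 and 7.76 CPM in U1, U2, I1 and I2. Of this, Pecam1 alone made up 22.1, 18.1, 10.6 and 7.29 CPM. Prox1, Lyve1, Pdpn and Col1a1 each had at most 1.64 CPM in any mouse. I2 stood apart from I1, with 249 of the 255 inflammatory macrophage-like cells and 10 medullary sinus macrophage-like (MSM-like) cells against 96. MSM-like cells were shallow, with medians of 1716.5, 2001.5, 2577 and 2042.5 UMIs in U1, U2, I1 and I2, and their nuclear RNA Malat1 stood at 215.4 to 1270.8 CPM against 8090.6 to 11685.6 CPM in C1q macrophage-like cells. The part of this depth in the results was not tested, except where detection after thinning each cell to 1000 UMIs is given.

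The members differed between cell types, and no change after immunization within a type passed the test. UMIs were summed per mouse and cell type, and 55 libraries of at least 10 cells entered 1 fit by edgeR's quasi-likelihood test. The filter on low counts kept 11603 genes and 7 of the 8 members, all but Cd163. Of 98 tests of a member in a cell type against the mean of the other types (7 members, 14 types), 27 were higher and 9 lower at an adjusted p under 0.05, which is 27.6% and 9.18%. Over all genes 13.9% of such tests were higher and 4.67% lower. Of the groups of type and condition, Cd5l was at 0 in 11, Cd36 in 5, Marco in 2 and Lrp1 in 1. A member at 0 in most types passes the filter only through the type where it is high. These counts, and the tests of such members between types, are therefore descriptions. Many tests of Marco, Cd5l, Cd36 and Lrp1 in types where they were low had very large standard errors (SE). The SE was 18794 for Marco in γδ T cell-like cells and 12674 for Cd5l in classical monocyte-like cells. Such tests could not call a type lower, so the 9 lower calls do not come from 98 tests that could all do so.

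Marco and Cd5l were highest in the MSM-like cells. Marco encodes a class A receptor with a collagen-like stalk that binds bacteria and particles, and Cd5l encodes AIM, a protein secreted by tissue macrophages that carries scavenger receptor cysteine-rich domains. Neither gene was used to gate the cells. These cells had at least 500 CPM of Cd209b together with a UMI of Cd209f, Cd209g or Timd4. The thresholds of the gates were set after member values per cluster had been seen, so the gate was not blind to these genes. Of all genes tested, 14.4% were higher in this type than averaged over the others.

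The 250 bases before the annotated start of each gene are shown for these members because their levels followed each other across cell types. Both are RefSeq sequences on GRCm38.p6, written 5′ to 3′ on the gene's own strand. Capitals mark GAGGAA, a core of the sites bound by the macrophage factor PU.1, and TGCTGA, a second short motif that was searched, on either strand. Marco is a protein-coding gene on the minus strand of chromosome 1 (120474538 to 120505024), and Cd5l one on the plus strand of chromosome 3 (87357881 to 87371073).
Marco, chr1:120505025-120505274, minus strand: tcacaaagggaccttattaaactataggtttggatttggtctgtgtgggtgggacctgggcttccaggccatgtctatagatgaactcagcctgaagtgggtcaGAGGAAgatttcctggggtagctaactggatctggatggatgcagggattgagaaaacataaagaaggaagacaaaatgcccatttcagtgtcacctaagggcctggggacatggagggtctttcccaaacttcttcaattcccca
Cd5l, chr3:87357631-87357880, plus strand: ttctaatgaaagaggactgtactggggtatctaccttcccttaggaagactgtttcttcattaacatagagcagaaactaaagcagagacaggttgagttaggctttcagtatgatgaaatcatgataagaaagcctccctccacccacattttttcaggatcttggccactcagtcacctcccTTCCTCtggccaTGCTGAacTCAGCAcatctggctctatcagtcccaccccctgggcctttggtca
Both windows held 1 GAGGAA, a motif present in 23.3% of 32851 mouse promoter windows of this length. The Cd5l window also held 2 copies of TGCTGA, which occurs in 16.1% of windows. These copies face each other, TGCTGA and its reverse complement TCAGCA parted by any 2 bases, an arrangement found in 2 of the 32851 windows, which was searched for only after the sequence had been read. Of the other members, 4 had a window in the table used, and none of those held GAGGAA, while Cd36 and Scarb2 held 1 TGCTGA each. These matches describe letters and do not show that a factor binds there.

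Marco stood at 1500 CPM in the MSM-like cells of U1, 1430 in U2, 2240 in I1 and 2670 in I2. No library of another type came near these values. Their mean of 1960 CPM (SD 599, n = 4) was 21.2 times that of C1q macrophage-like cells, the next highest type. The quasi-likelihood test against the mean of the other types gave an adjusted p of 3.59e-20. This p is a description, since the gate thresholds were set after member values had been seen. Marco was detected in 84.0%, 77.8%, 90.6% and 90.0% of MSM-like cells of U1, U2, I1 and I2, and in 67.7%, 72.2%, 78.1% and 80.0% after thinning. In αβ T cell-like cells, which should lack Marco and held medians of 5409 to 6997 UMIs, the share was 1.49% to 4.44% before and 0.0% to 1.35% after thinning. Single MSM-like cells held up to 35 Marco UMIs in U1, 12 in U2, 32 in I1 and 16 in I2.

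Both immunized mice lay above both unimmunized mice in the Marco level of MSM-like cells, but the log2 difference of 0.68 (SE 0.729, adjusted p = 0.943) did not pass the test. The share of MSM-like cells in each mouse was 9.26% in U1, 3.35% in U2, 2.37% in I1 and 0.212% in I2. They held 72.0%, 49.1%, 49.4% and 37.6% of all Marco UMIs in U1, U2, I1 and I2.

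C1q macrophage-like cells, gated by C1qa, C1qb and C1qc, had the second highest mean Marco level of the gated types. Their Marco level was 145 CPM in U1, 92.4 in U2 and 131 in I1, but 2.09 CPM in I2. The I2 value lay within the range of αβ T cell-like cells (1.85 to 8.07 CPM), while the other 3 lay above every αβ T cell-like library. The type was higher than the mean of the others at an adjusted p of 3.07e-05. This call was lost without U1 (adjusted p = 0.0982) and when only cells with at least 3000 UMIs were used (adjusted p = 0.707).

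The C1q macrophage-like cells that contained Marco differed between mice in what else they held. There were 13 such cells of 46 in U1, 8 of 23 in U2, 43 of 305 in I1 and 10 of 1021 in I2. In the unimmunized mice 84.6% (U1) and 75.0% (U2) of them also had Cd209b, an MSM marker. They were as shallow as MSM-like cells, with medians of 1606 and 1933.5 UMIs. Cd209b stood at 104 and 0 CPM in the cells without Marco of U1 and U2. It stood at 3320 and 1670 CPM in those with Marco. The MSM gate asked for 500 CPM and also for a UMI of Cd209f, Cd209g or Timd4. Cd209f was in none of the cells with Marco, and Timd4 was in 4 of those of U1 and 1 of those of U2. Whether the cells with Marco were MSM-like cells that missed that gate was not tested. In I1 20.9% had Cd209b and 67.4%, 29 of 43 cells, had Cd5l, and 1 cell held 72 Marco UMIs. None of the 21 Marco-containing cells of U1 and U2 had an Msr1 UMI, against 54.5% (U1) and 86.7% (U2) of their deeper Marco-free neighbours, whose medians were 7830 and 10030 UMIs. In I1 20.9% and in I2 50% of the Marco-containing cells had Msr1, against 58.8% and 80.4% of those without Marco. These values are descriptions of cells sorted by a gene they contained, and depth moved with them.

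Cd5l in MSM-like cells was 59.3 CPM in U1, 126 in U2, 332 in I1 and 129 in I2. The value of I1 was the highest, and those of U2 and I2 rested on 5 and 3 UMIs. The mean of 162 CPM (SD 118, n = 4) was 9.7 times that of C1q macrophage-like cells. Cd5l was at 0 in 11 groups of type and condition, so no test between types is given for it. Cd5l was detected in 8.02%, 22.2%, 43.8% and 30.0% of MSM-like cells of U1, U2, I1 and I2, against at most 0.448% of αβ T cell-like cells, and after thinning in 4.67%, 11.1%, 22.9% and 0.0%. The captures ordered the mice alike where both could be read, with 35.1 and 78.8 CPM in U1 and 241 and 422 CPM in I1. The log2 difference after immunization was 2.06 (SE 1.02, adjusted p = 0.817). It passed the threshold when the MSM-like libraries were fitted alone and when I2 was left out.

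Cd5l also differed between the immunized mice outside the MSM-like cells. In C1q macrophage-like cells it was 7.08 CPM in U1, 5.78 in U2, 52.0 in I1 and 1.89 in I2, and tingible body macrophage-like (TBM-like) cells had 16.8 CPM in I1 and 0.87 in I2. In both types I1 lay above I2, where the TBM-like value of I2 rested on 3 UMIs. The C1q macrophage-like values of U1 and U2 rested on 2 and 1 UMIs, under the floor of 3 counts. They were not ordered against I1 and I2. After thinning, 21 of the 22 MSM-like cells of I1 with Cd5l also had Marco, where the product of both shares gives 17.2. In U1 it was 9 of 12 against 8.12 and in U2 1 of 2 against 1.44, and no thinned cell of I2 had Cd5l.

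**Figure D1:**
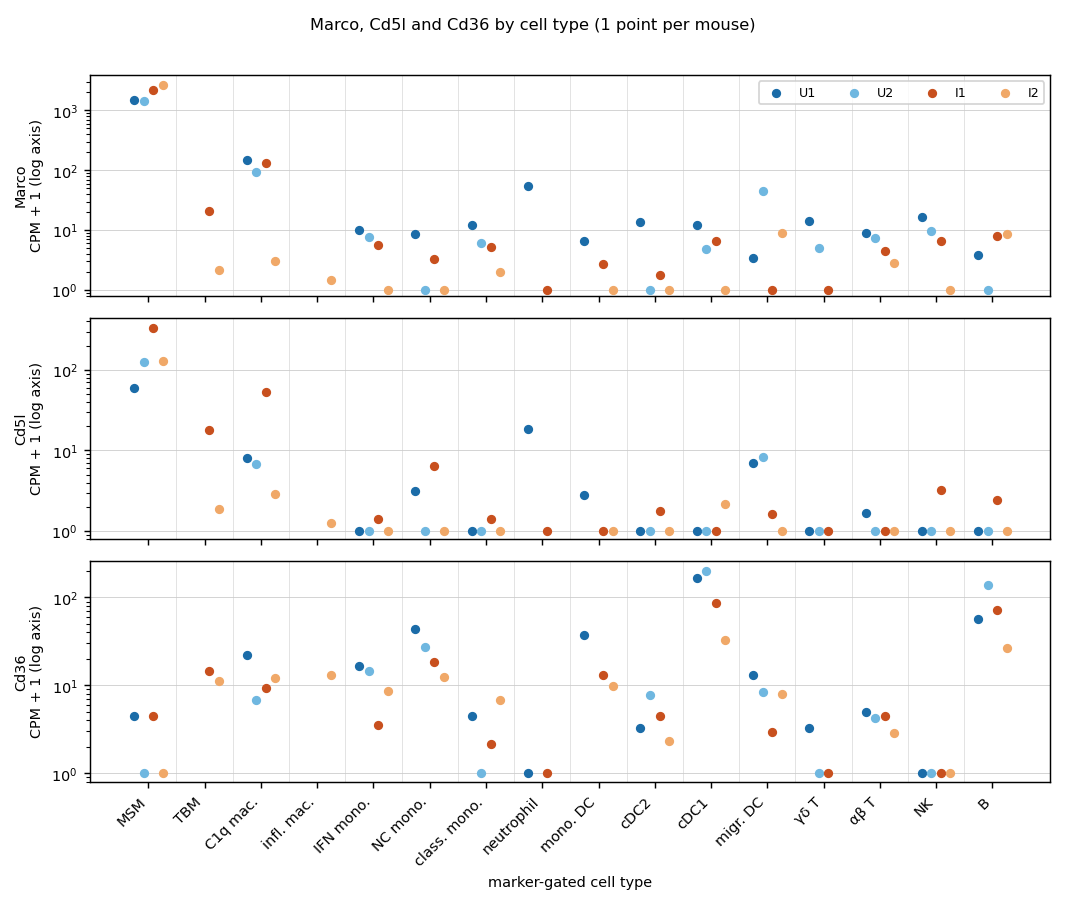
CPM plus 1 on a log axis for Marco, Cd5l and Cd36 in each marker-gated cell type, with 1 point per mouse and library of at least 10 cells (U1 and U2 unimmunized, I1 and I2 immunized). Marco is highest in the MSM column at 1430 to 2670 CPM, Cd5l in the same column at 59.3 to 332 CPM, and Cd36 in the cDC1 and B columns.

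Msr1 showed another distribution. It encodes the class A receptor SR-A, a close structural relative of MARCO that takes up modified lipoproteins and bacterial products, and lies on the minus strand of chromosome 8 (39581685 to 39642673). Its levels were highest in monocytes and macrophages other than MSM-like cells. Inflammatory macrophage-like cells, present as a library in I2 alone, had 208 CPM, and TBM-like cells had 119 CPM in I1 and 214 in I2.

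C1q macrophage-like cells had 145, 173, 121 and 175 Msr1 CPM in U1, U2, I1 and I2. Classical monocyte-like cells had 116, 129, 135 and 165 CPM, and their range overlapped that of the C1q macrophage-like cells. Both were higher than the mean of the other types, by 2.21 (SE 0.299, adjusted p = 9.95e-07) and 2.07 (SE 0.249, adjusted p = 3.24e-08) on the log2 scale. Interferon-high monocyte-derived-like cells (1.75, SE 0.328, adjusted p = 7.99e-05) and nonclassical monocyte-like cells (1.46, SE 0.297, adjusted p = 0.000262) were higher too. The means of these 4 types ran from 96.5 to 154 CPM with overlapping ranges. Within each of the 4 mice the order was classical monocyte-like, interferon-high and then nonclassical monocyte-like cells, and C1q macrophage-like cells lay above both the interferon-high and the nonclassical monocyte-like cells. Differences between these types were not tested.

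MSM-like cells held little Msr1 beside their Marco. They had 9 Msr1 UMIs in U1 (15.7 CPM), 0 in U2, 9 in I1 (31.8 CPM) and 0 in I2. At these depths a count of 0 allows up to 75.5 CPM in U2 and 129 CPM in I2, so those mice carry little information. The log2 difference from the mean of the other types was -1.06 (SE 0.626, adjusted p = 0.26). Natural killer (NK) cell-like cells had 13.8 to 58.3 CPM of Msr1 and αβ T cell-like cells 6.49 to 37.0 CPM, so the MSM-like values lay at the level of lymphocytes, which should lack the gene. αβ T cell-like cells were the only type called lower (-1.34, SE 0.453, adjusted p = 0.0198).

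Lrp1 encodes a large endocytic receptor for lipoproteins, protease complexes and apoptotic cells, and lies on the minus strand of chromosome 10 (127538161 to 127621148). It was highest in nonclassical monocyte-like cells, at 251 CPM in U1, 203 in U2, 210 in I1 and 140 in I2. Every one of these values lay above the mean of every other type. The mean was 201 CPM (SD 45.8, n = 4), and the adjusted p against the other types was 1.22e-13. Interferon-high cells followed at 175, 169, 130 and 67.7 CPM in U1, U2, I1 and I2, where I2 was lowest. Their range overlapped that of the nonclassical monocyte-like cells. The name nonclassical rests on marker genes alone. The mean centred log ratio of the Ly-6C antibody in this type was 2.54, 2.901, 3.077 and 3.189 in U1, U2, I1 and I2. Classical monocyte-like cells had 3.07, 3.838, 3.647 and 3.505, higher in every mouse, and C1q macrophage-like cells were lower in every mouse.

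Lrp1 was also called higher in classical monocyte-like cells (140, 86.0, 136 and 86.8 CPM in U1, U2, I1 and I2), in C1q macrophage-like cells (110, 86.6, 86.7 and 65.9 CPM) and in monocyte-derived dendritic cell-like cells (119 CPM in U1, 96.3 in I1 and 87.0 in I2). It was called lower in B cell-like cells, with 0 UMIs in U1 and U2, 12.7 CPM in I1 and 35.9 CPM in I2 (adjusted p = 7.31e-05). That call used a group at 0 and is a description. In the same fit the SE was 38770 in migratory dendritic and 76827 in NK cell-like cells, so neither could be called. Over the immunized mice alone the quasi-likelihood test put Lrp1 lower in B (adjusted p = 0.00904), migratory dendritic (0.000403), NK (0.0233) and αβ T cell-like cells (0.0402). That comparison was added after the data were seen. MSM-like cells had 38.4, 25.2, 31.8 and 0 CPM of Lrp1.

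Scarb1 and Scarb2 encode class B receptors with a pair of membrane spans. SCARB1 (SR-BI) takes up cholesterol from high-density lipoprotein at the cell surface, and SCARB2 (LIMP-2) carries glucocerebrosidase to the lysosome. Scarb1 was called in 12 of 14 types, the most of any member. It was higher in nonclassical monocyte-like cells (91.7, 109, 88.8 and 71.5 CPM in U1, U2, I1 and I2), by 1.78 on the log2 scale (SE 0.188, adjusted p = 1.02e-09). Interferon-high cells (1.52, SE 0.214) and classical monocyte-like cells (1.39, SE 0.175) came next, followed by 4 further types: C1q macrophage-like cells and cells like monocyte-derived dendritic cells, conventional type 1 (cDC1) and conventional type 2 dendritic cells (cDC2). It was lower in migratory dendritic cell-like cells (-2.07, SE 0.366, adjusted p = 1.48e-05) and in the B, NK, αβ T and γδ T cell-like cells.

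The split among dendritic cells was clear in single mice. cDC1-like cells had 40.6, 51.0, 38.5 and 63.8 Scarb1 CPM in U1, U2, I1 and I2, and migratory dendritic cell-like cells never exceeded 11.6 CPM. The ranges did not overlap. Scarb2 varied least, with every type mean between 47.3 and 131 CPM. It was higher in classical monocyte-like (112, 127, 105 and 118 CPM in U1, U2, I1 and I2; log2 difference 0.95, SE 0.154, adjusted p = 8.82e-06), C1q macrophage-like (0.80), interferon-high (0.78) and nonclassical monocyte-like cells (0.63), and lower in B cell-like (-1.0, SE 0.262) and γδ T cell-like cells (-0.91, SE 0.322).

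**Figure D2:**
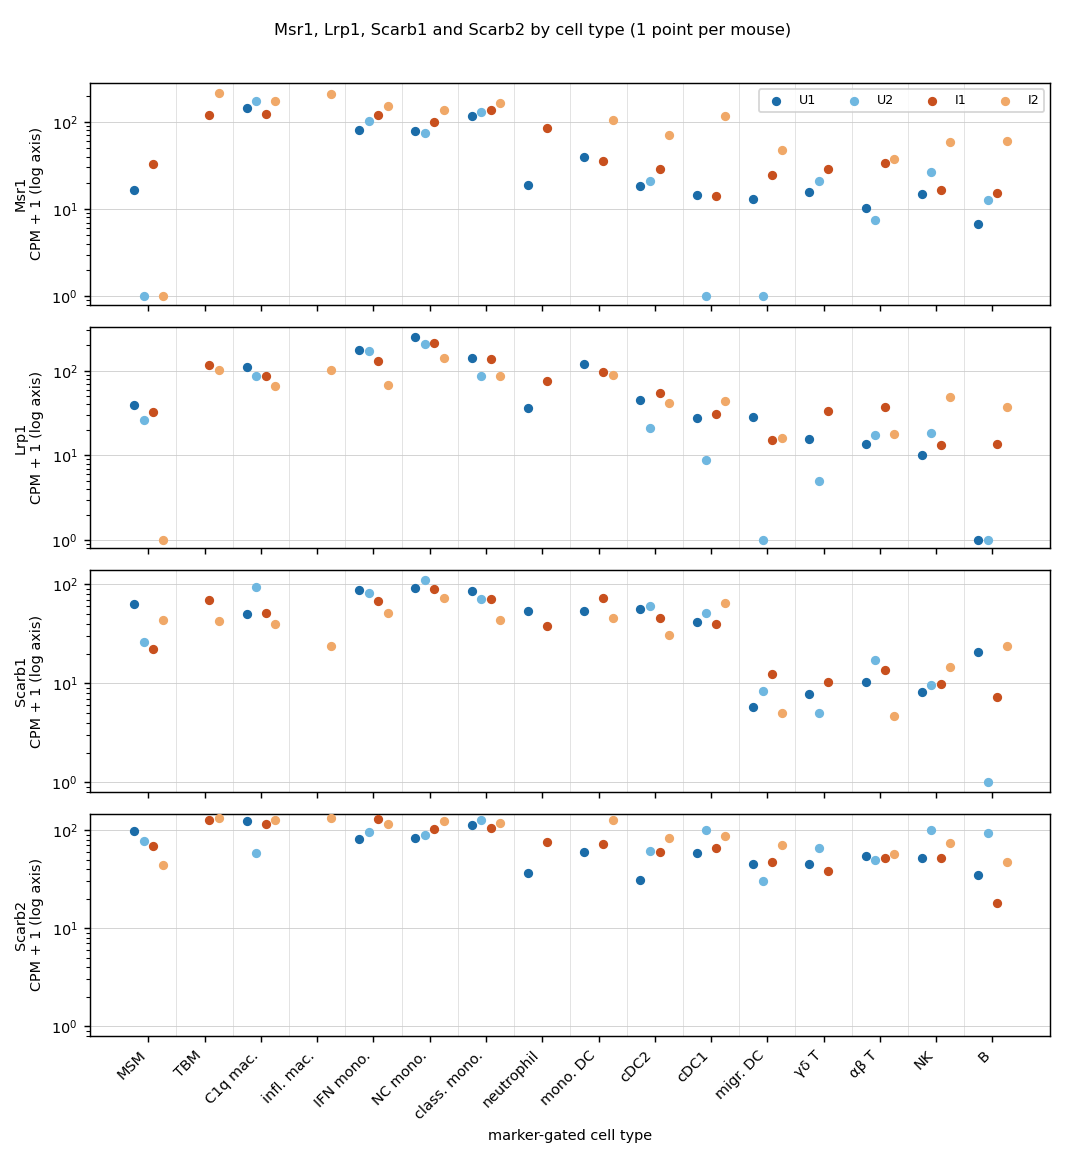
CPM plus 1 on a log axis for Msr1, Lrp1, Scarb1 and Scarb2 in each marker-gated cell type, with 1 point per mouse and library of at least 10 cells. Msr1 and Lrp1 are higher in the monocyte and macrophage columns other than MSM, Scarb1 drops to at most 11.6 CPM in migratory dendritic cell-like cells, and Scarb2 is spread over all columns.

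Tingible body macrophages engulf dying B cells in germinal centers. The TBM-like cells here were gated by marker genes alone, and their place and function were not measured. The unimmunized mice held 8 and 6 TBM-like cells, too few for a library. Over the immunized mice alone, a comparison added after the data were seen in which 8.89% of all tests were higher, 4 members were higher in this type than averaged over the others. They were Msr1 (log2 difference 1.53, SE 0.305, adjusted p = 0.000483), Lrp1 (1.17, SE 0.253, adjusted p = 0.00129), Scarb1 (0.88, SE 0.247, adjusted p = 0.0156) and Scarb2 (0.80, SE 0.203, adjusted p = 0.00655). Marco had 20.1 CPM in I1 and 1.16 in I2 and was not called. In the same comparison Msr1, Lrp1, Scarb1 and Scarb2 were each called higher in interferon-high and in classical monocyte-like cells as well. C1q macrophage-like cells were called for Msr1 (1.36, SE 0.294, adjusted p = 0.00274) and Scarb2 (0.74, SE 0.191, adjusted p = 0.0122). They were not called for Scarb1 (adjusted p = 0.0652) or Lrp1 (adjusted p = 0.0882). Nonclassical monocyte-like cells were called for Msr1, Lrp1 and Scarb1.

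Cd36 encodes a class B receptor for oxidized lipoprotein, long-chain fatty acids and apoptotic cells, and lies on the minus strand of chromosome 5 (17781690 to 17888801). Its highest level was in cDC1-like cells, the dendritic cells known for taking up dead cells and presenting their antigens on class I molecules. These cells had 167 CPM in U1, 200 in U2, 84.8 in I1 and 31.9 in I2. Cd36 was higher in them than in the mean of the other types (adjusted p = 3.75e-15 by the quasi-likelihood test). With 5 groups of type and condition at 0, the tests of Cd36 between types are descriptions. Cd36 was detected in 69.2%, 94.4%, 61.1% and 26.1% of them, at medians of 15983 to 18299 UMIs per cell, against 1.35% to 2.22% of αβ T cell-like cells at medians of 5409 to 6997. After thinning to 1000 UMIs the share was 11.5% in U1, 0.0% in U2, 5.56% in I1 and 4.35% in I2, against 0.0% to 2.22% of αβ T cell-like cells, and no order of the mice was read from it, since U2 had the highest CPM. NK cell-like cells had no Cd36 UMI in any mouse.

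B cell-like cells were the second Cd36 type, with 56.6 CPM in U1, 139 in U2, 70.3 in I1 and 25.6 in I2 (adjusted p = 2.51e-09). The UMIs were in few of these cells, 8.75% in U1, 13.3% in U2, 25.9% in I1 and 6.98% in I2. Their range overlapped that of cDC1-like cells. Nonclassical monocyte-like cells had 43.1, 26.0, 17.6 and 11.5 CPM (adjusted p = 2.84e-05), a call lost without U1 (adjusted p = 0.124). Monocyte-derived dendritic cell-like cells were called as well (adjusted p = 0.0204), with 1 unimmunized library. That library, U1, had 36.7 CPM from 20 UMIs, 17 of them in capture 2, while the immunized mice had 8.92 to 12.0 CPM. Over the immunized mice alone this type was not called (adjusted p = 0.767). MSM-like cells held 2, 0, 1 and 0 Cd36 UMIs.

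Cd163, the receptor for hemoglobin bound to haptoglobin and a marker of many tissue macrophages, had few UMIs. All cells together held 15 UMIs in U1, 2 in U2, 16 in I1 and 2 in I2. MSM-like cells had none in any mouse, which allows up to 5.23 CPM in U1, 75.5 in U2, 10.6 in I1 and 129 in I2. cDC2-like cells held 6, 1, 10 and 0 of these UMIs, and the remainder were scattered, with 5 in monocyte-derived dendritic cell-like cells of U1 and 4 in TBM-like cells of I1. These floors and intervals cover counting error only.

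**Figure D3:**
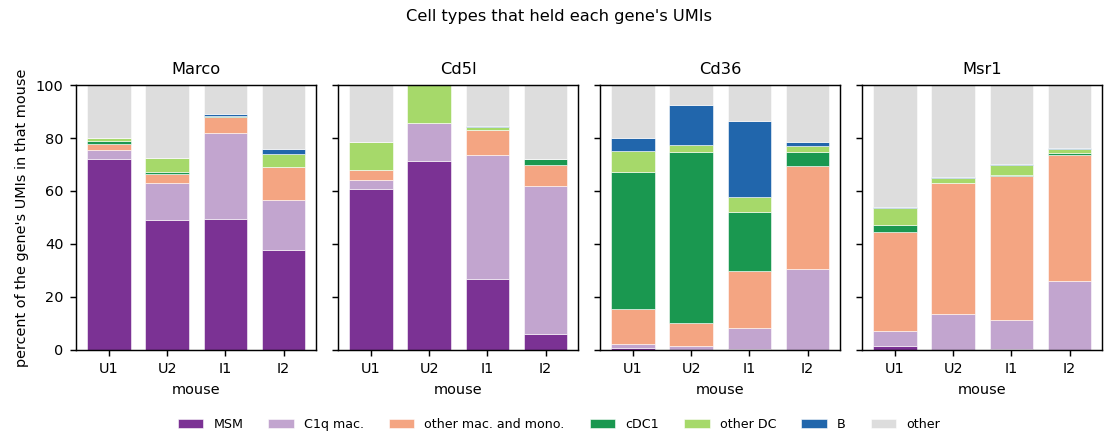
Percent of each mouse's UMIs of Marco, Cd5l, Cd36 and Msr1 held by groups of marker-gated cell types, as stacked bars that sum to 100 (other: remaining types and cells that met no gate). MSM-like cells hold 37.6% to 72.0% of Marco UMIs, and the share of Cd36 UMIs in cDC1-like cells is 51.9% in U1, 64.6% in U2, 22.3% in I1 and 5.16% in I2.

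Immunization changed no member within a cell type at the threshold. Of 77 tests (7 members in the 11 types with both mice of each condition), edgeR's quasi-likelihood test called 0, and 6 had an unadjusted p under 0.05. DESeq2 called 0 as well, with 5 at an unadjusted p under 0.05. Over all genes 0.169% of such tests were called by edgeR (0.114% by DESeq2) and 7.8% had an unadjusted p under 0.05.

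The 2 closest to the threshold were in cDC1-like cells. Cd36 in cDC1-like cells was at 167 and 200 CPM in U1 and U2 against 84.8 and 31.9 CPM in I1 and I2, a log2 difference of -1.58 (SE 0.433, adjusted p = 0.0692). The conditions did not overlap. The captures gave 168 and 166 CPM in U1, 84.9 and 84.6 in I1, and 24.5 and 39.6 in I2. It passed the test without I1, without cells of high Scrublet score, without the filter on low counts and with another library scaling.

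Msr1 in cDC1-like cells was 13.5 CPM in U1, 0 in U2, 13.2 in I1 and 116 in I2. The log2 difference of 2.57 (SE 0.736, adjusted p = 0.0851) rested on I2, since I1 lay at the level of U1. Msr1 moved in other types of I2 as well: lymphocyte-like cells together, which should lack it, had 12.2, 16, 20 and 47.3 CPM in U1, U2, I1 and I2, and the monocyte and other macrophage types that hold most Msr1 made up 67.6% of the UMIs of I2. The part of RNA from other cells in this value was not tested.

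**Figure D4:**
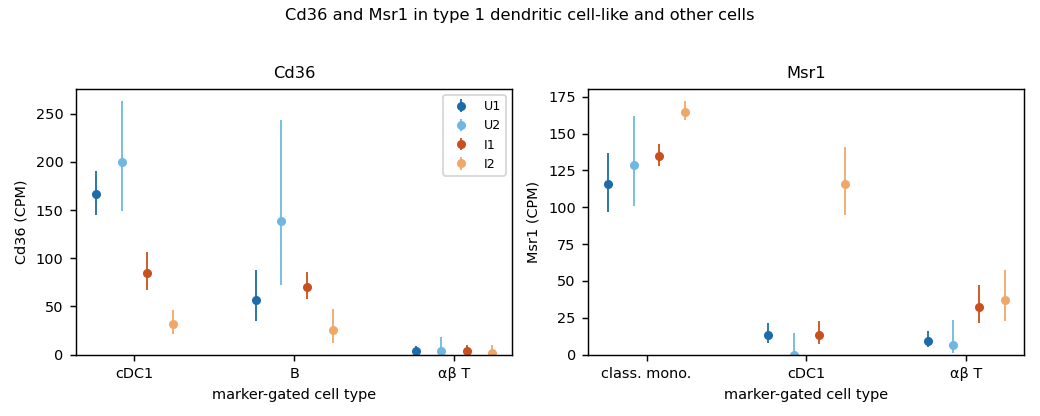
CPM of Cd36 in cDC1-like, B and αβ T cell-like cells and of Msr1 in classical monocyte-like, cDC1-like and αβ T cell-like cells, with 1 point per mouse and 95% exact Poisson intervals that cover counting error only. Cd36 in cDC1-like cells is lower in both immunized mice, and Msr1 in cDC1-like cells is high in I2 alone at 116 CPM.

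Whether a member's change differed between types was tested in 1 model over the same 11 types. None of 7 members passed, and 0.0776% of all genes did. Lrp1 had an unadjusted p under 0.05, with an adjusted p of 0.75.

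Summed over all sorted cells, Msr1 was 37.5 CPM in U1, 58.7 in U2, 90.1 in I1 and 161 in I2, a log2 difference of 1.66 (SE 0.401, adjusted p = 0.108). Lrp1 was 55.0, 52.6, 93.6 and 74.2 CPM (0.89, SE 0.137, adjusted p = 0.107), and Cd36 was 21.4, 20.7, 8.84 and 8.76 CPM (-1.0, SE 0.141, adjusted p = 0.107). Scarb2 was 61.8, 81.2, 88.5 and 118 CPM (adjusted p = 0.131). For these 4 genes the conditions did not overlap and the unadjusted p was under 0.05, but edgeR's quasi-likelihood test called 0 of 8 members and 0.0% of all genes (28.6% had an unadjusted p under 0.05). DESeq2 called 3 members, Cd36, Msr1 and Lrp1, and 11.4% of all genes.

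Marco in the whole sort was 63.1, 30.4, 32.8 and 2.66 CPM in U1, U2, I1 and I2, and Cd5l was 2.96, 1.83, 9.05 and 0.807 CPM. For Marco I1 lay between the unimmunized mice and I2 below both, and for Cd5l I1 lay above and I2 below both. Scarb1 was 32.6, 44.5, 50.5 and 37.5 CPM, and its conditions overlapped.

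The mix of cells differed between the mice at the same time. Monocyte and macrophage types other than MSM-like cells held 15.5%, 30.7%, 47.3% and 67.6% of the UMIs of U1, U2, I1 and I2, and lymphocyte-like cells held 27.2%, 22.9%, 8.71% and 2.05%. cDC1-like cells, the type highest in Cd36, held 6.63%, 6.67%, 2.33% and 1.42%. In sums over a sort, more cells of a type and more RNA per cell cannot be told apart. Within the 6 monocyte and other macrophage types summed, Msr1 was 105, 120, 125 and 175 CPM in U1, U2, I1 and I2. The mix of these types differed between mice too, with C1q macrophage-like cells at 1.49% of the UMIs of U1 and 23.9% of those of I2. The part of the mix in the Msr1 values was not tested.

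**Figure D5:**
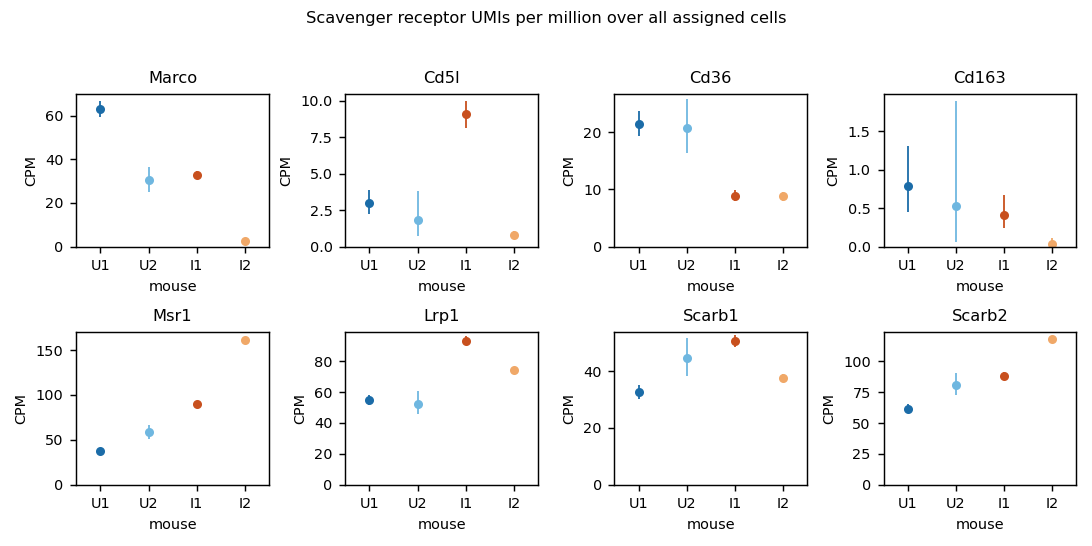
CPM of each of the 8 members over all assigned cells, with 1 point per mouse and 95% exact Poisson intervals that cover counting error only. Msr1, Lrp1 and Scarb2 are higher and Cd36 is lower in both immunized mice, none past the threshold, and Marco is lowest in I2 at 2.66 CPM.

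The non-member genes most like each member were taken by Pearson correlation of log2(CPM + 1) over the 55 libraries, which share mice, depth and pools, so the values describe these libraries. Marco was most like Cox4i2 (0.893), Igf1 (0.87) and Folr2 (0.868), and Cd5l most like Folr2 (0.867), Ncoa4 (0.813) and Ccl8 (0.813). Between members the highest value was that of Marco with Cd5l (0.841). Msr1 was most like Sirpb1c (0.89), Cybb (0.876) and Pla2g7 (0.864), and Lrp1 most like Ifitm3 (0.9), Clec4a3 (0.883) and Fgd4 (0.877). Scarb1 was most like Tifab (0.9), Rgs2 (0.853) and Alox5ap (0.847). Cd36 and Scarb2 had no such close neighbour, with highest values of 0.673 (Gm6377) and 0.744 (Fam174a).

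Other scavenger receptors were read from a list of 24 genes, of which 14 were tested. In MSM-like cells 5 were higher and 2 lower, with a median log2 difference of 0.41 against -0.13 for all genes, of which 25.6% were called in either direction. The named ones are Stab2, a receptor for hyaluronan (12.2 CPM in U1, 0 in U2, 21.2 in I1 and 0 in I2), Asgr2 (20.9, 0, 28.3 and 0 CPM), Mrc1, the mannose receptor CD206 (97.6, 25.2, 60.0 and 0 CPM), and the collectin Colec12 (15.7, 0, 17.7 and 0 CPM). Stab2, Asgr2 and Colec12 had at most 12 UMIs in a mouse, and Mrc1 had 56 in U1, 1 in U2 and 17 in I1. Each was at 0 in some groups of type and condition, so no test is given for them. The counts of this list include such genes and are descriptions as well. In C1q macrophage-like cells 5 were higher and 0 lower (median 1.41 against 0.19, with 11.1% of all genes called), among them Mrc1 (70.8, 34.7, 32.2 and 22.0 CPM) and Cxcl16, a membrane chemokine that binds oxidized lipoprotein (1.91, SE 0.263, adjusted p = 1.48e-06). Cd163l1, a relative of Cd163, was called higher in γδ T cell-like cells, at 457 CPM in U1, 32.0 in U2 and 235 in I1. It was also called higher in αβ T cell-like cells. Cd163l1 was at 0 in 13 groups of type and condition, so these calls are descriptions.

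Ligands, partners and regulators of the receptors were read from a list of 22 genes, of which 21 were tested. In MSM-like cells 7 were higher and 2 lower, with a median log2 difference of 0.42 against -0.13 for all genes, of which 25.6% were called in either direction. Hmox1, the heme-degrading enzyme, was at 662, 553, 798 and 1850 CPM in U1, U2, I1 and I2 and differed by 4.77 (SE 0.233, adjusted p = 2.15e-19). Apoe, a lipoprotein ligand of LRP1, differed by 3.4 (SE 0.267) at 5220, 6640, 5900 and 3790 CPM. Spic, the factor of iron-recycling macrophages, had 110, 176, 141 and 86.2 CPM. Cd163, the receptor upstream of Hmox1 in heme clearance, was at 0 in the same cells. Its absence was not particular to them. Classical, nonclassical and interferon-high monocyte-like libraries held 0 Cd163 UMIs as well, and those of C1q macrophage-like cells held 1.

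In C1q macrophage-like cells 14 of the 21 were higher and 0 lower (median 1.03 against 0.19, with 11.1% of all genes called), among them Pltp, the phospholipid transfer protein, at 379, 445, 362 and 197 CPM in U1, U2, I1 and I2. Of 385 tests of both lists for immunization within a type 1 passed (0.26%, near the 0.169% of all genes' tests). It was Pltp in cDC1-like cells, higher by 2.74 on the log2 scale (SE 0.599, adjusted p = 0.0156), a type in which 0.939% of all genes were called.

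Protein was measured for none of the members. The panel held an antibody to CD68, a class D scavenger receptor that the paper describes as a late endosome marker. The mean centred log ratio of this antibody was 0.408 in U1, 0.71 in U2, 0.73 in I1 and 0.655 in I2 in MSM-like cells. It was at most -0.192 in every other library. The ratio moves with the other antibodies of the panel, and the part of the low Malat1 of MSM-like cells in it was not tested. The range of Cd68 mRNA in MSM-like cells overlapped that of C1q macrophage-like cells, at 316, 478, 215 and 302 CPM against 297, 323, 275 and 287 CPM in U1, U2, I1 and I2.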

How the data were processed

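The authors aligned 3′ reads to mm10 with Cell Ranger 4.0.0 and deposited UMI counts per gene and barcode. CITE-seq-count gave them the counts of hashtags and of antibodies. All deposited counts were used without change. A cell needed at least 10 hashtag counts, 80% of them from 1 hashtag, and at most 25% mitochondrial UMIs. Barcodes with several hashtags were removed as doublets, and HTODemux of Seurat 5.3.0 was an alternative. Gates by marker genes took their thresholds after marker and member values per cluster had been seen, and the members and lists were chosen with earlier results of these data known.

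UMIs summed per mouse and type were fitted with edgeR 4.0.16 (TMM, filterByExpr, quasi-likelihood test, Benjamini-Hochberg adjustment over all genes, threshold 0.05; R 4.3.3), after a test on simulated data. DESeq2 1.42.0, limma 3.58.1 voom, other filters, gates, scalings and left-out mice were alternatives. CPM are counts per 1000000 UMIs of a library. Fold changes between types are printed only for genes above 0 in every group of type and condition, or beside their levels. Libraries that share a mouse share an animal, which pairs types but not conditions. Deviations of libraries of the same mouse correlated at medians of 0.0292 (66 pairs, unimmunized) and 0.1292 (78 pairs, immunized). The highest values were 0.0816 and 0.5241. The main fit held no block for the mouse, so its tests between types take libraries of a mouse as independent. Named genes were the 8 members, the 3 genes most like each, and up to 4 genes per list and comparison with the largest called change. Clec7a of the first list was not analysed here, and 1 gene that the rule names is not reported here. Poisson and binomial intervals are exact at 95%, and floors are 3 counts.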

Additional observations from a re-analysis of the deposited data

How the results depend on the processing

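A chosen set of fits of single members and types, and some detection shares, were followed over the alternatives. Of these alternative values 300 stayed the same, 21 passed the threshold newly, 4 lost it, 7 moved and 0 reversed. A fit stayed the same when it kept its side of the threshold. All that moved were detection shares, which differed from the main thinning by at least their SD over mice. Within types the count of members changed after immunization, 0 of 77, became 9 of 88 without the filter on low counts, 2 (Cd36 and Msr1 in cDC1-like cells) without high Scrublet scores, 1 (Cd36 in cDC1-like cells) with RLE scaling, 2 of 46 (Cd5l in MSM-like, Msr1 in αβ T cell-like cells) with each type fitted alone, and 1 (Marco in C1q macrophage-like cells) with limma voom and the mouse as a replicate block. Leaving out 1 mouse gave 0 to 12, with 12 without I1, 2 without I2 and 0 without U1 or U2. The count of members differing between types, 36, ran from 16 without U1 to 43 without I2 when 1 mouse was left out. It was 41 with the replicate block, 38 with DESeq2, 45 with HTODemux, and 31 and 26 in the captures alone. Members whose change differed between types, 0 of 7, became 3 without the filter and 0 to 3 with 1 mouse left out (3 without I1, 1 without I2), and stayed at 0 with the replicate block, which was added after the data were seen. In the whole sort, 0 of 8 became 3 with DESeq2, 4 without the filter, and 0 to 6 with 1 mouse left out (6 without I1, 4 without I2), where no block was possible because each mouse gave 1 library. The cause of these differences was not tested. The share of all genes called was taken for DESeq2 within types and in the whole sort, but not for the other alternatives. Their counts are therefore not read as results about the members. Each fit without 1 mouse left 1 mouse in a condition. The MSM-like libraries of U2 and I2 held 18 and 10 cells, so a count of 0 there allows up to 75.5 and 129 CPM.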

Other observations

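Cells that met no gate held members as well. Of 1062, 203, 1366 and 1345 such cells in U1, U2, I1 and I2, 70, 11, 38 and 14 contained Marco, with up to 4, 7, 15 and 20 Marco UMIs in 1 cell. Cd209b was present in 45.7%, 18.2%, 31.6% and 7.14% of the cells with Marco. Cd5l was present in 28.9% of those of I1 and 14.3% of those of I2, and in none of those of U1 and U2.

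The CD169 antibody, which recognises the protein whose gene drives the reporter, gave a mean centred log ratio of 0.751, 0.85, 0.232 and 0.116 in MSM-like cells of U1, U2, I1 and I2. NK cell-like cells gave 1.48, 1.347, 1.002 and 0.775, above MSM-like cells in every mouse. B cell-like cells gave 0.033, -0.135, 0.223 and -0.09, below MSM-like cells in every mouse. γδ T cell-like cells were above NK cell-like cells, at 1.564 in U1, 1.534 in U2 and 1.098 in I1. cDC1-like cells gave 1.078, 1.03, 0.159 and -0.332, above MSM-like cells in the unimmunized mice and below them in the immunized mice. The ratio is taken over all antibodies of the panel, so it moves with the other antibodies too.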
